A study of Mus musculus with 13 samples.

Results

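The genes described here are the adult globin genes Hba-a1, Hba-a2, Hbb-bs and Hbb-bt, the globin chaperone gene Ahsp and the erythropoietin receptor gene Epor. They were chosen by symbol, and all 6 were among the 18748 rows of the deposited gene table. Near-identical copies were summed, Hba-a1 with Hba-a2 (alpha-globin) and Hbb-bs with Hbb-bt (beta-globin). Messenger RNA came from the mandibular condylar cartilage, the cartilage on the jaw side of the temporomandibular joint, of young mice 2 months old (7 libraries) and aged mice 18 months old (6 libraries). The labels give no strain, sex, genotype or treatment. They do not say whether a library came from 1 mouse, so p-values measure only the spread between libraries.

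Haemoglobin, the oxygen carrier of red blood cells, is a tetramer of alpha and beta chains, each holding a haem. Free alpha chains are unstable and harm the cell. AHSP, the alpha-haemoglobin stabilising protein, binds them until they meet a beta chain. Erythropoietin acts through its receptor on red cell progenitors, through JAK2 and STAT5, before most globin is made, and the receptor declines as the cells mature. Red cells of mammals lose their nucleus but keep RNA while they are reticulocytes, and their precursors and reticulocytes are the main source of globin messenger RNA in the body. Chondrocytes have also been reported to make haemoglobin, and these libraries hold no measure of which cells an RNA came from.

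The copies are shown first because their likeness decides what can be counted. In the GENCODE M21 transcripts (build GRCm38), the coding sequences of Hba-a1 and Hba-a2 were each 429 bases long and differed at 1 base, C381T. Those of Hbb-bs and Hbb-bt were 444 bases long and differed at 1 base, C417T. Positions are counted from the first base of the start codon, and the first letter is that of Hba-a1 or Hbb-bs. The capital marks the differing base in these stretches of 41 bases, coding positions 361 to 401 for alpha and 397 to 437 for beta.
Hba-a1: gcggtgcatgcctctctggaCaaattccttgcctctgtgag
Hba-a2: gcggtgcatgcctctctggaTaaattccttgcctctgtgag
Hbb-bs: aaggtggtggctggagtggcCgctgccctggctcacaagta
Hbb-bt: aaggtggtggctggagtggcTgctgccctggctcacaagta
The labels give reads of 150 bases. Of the coding windows of that length, 82.5% in alpha and 90.5% in beta were the same in both copies. Over the whole transcripts the shared windows were fewer: 48.4% of those of Hba-a1, 65.7% of Hba-a2, 58.7% of Hbb-bs and 50.7% of Hbb-bt. Reads that reach the untranslated ends can thus tell the copies apart, while many of those within the coding sequence cannot, which leaves the share of a copy less certain than the sum. The windows stand for single reads. The libraries were sequenced as pairs, and how many pairs tell the copies apart was not counted.

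The sequences before the start sites are shown because the members rose together. RefSeq (GRCm38.p6) held such a window for 5 of the 6 members, all but Ahsp. The 250 bases upstream of the start are printed for 1 alpha gene, both beta genes and Epor, each on the gene's strand. Capitals mark matches on either strand to GATAA (the core bound by GATA factors), to CACCC (bound by factors like KLF1), to CCAAT (the common CCAAT box), to TATAA (the core of a TATA box) and to CCGCCC (the core of a GC box).
Hba-a1 (chr11:32283422-32283671, + strand): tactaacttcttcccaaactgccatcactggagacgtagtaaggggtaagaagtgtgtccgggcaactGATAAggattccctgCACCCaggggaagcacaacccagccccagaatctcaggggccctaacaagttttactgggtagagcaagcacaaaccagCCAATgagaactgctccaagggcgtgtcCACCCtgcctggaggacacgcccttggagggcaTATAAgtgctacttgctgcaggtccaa
Hbb-bs (chr7:103827929-103828178, - strand): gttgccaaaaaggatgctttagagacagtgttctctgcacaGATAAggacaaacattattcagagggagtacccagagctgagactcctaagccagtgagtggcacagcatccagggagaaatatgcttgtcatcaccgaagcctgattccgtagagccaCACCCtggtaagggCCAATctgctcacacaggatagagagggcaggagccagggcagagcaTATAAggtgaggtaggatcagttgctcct
Hbb-bt (chr7:103813924-103814173, - strand): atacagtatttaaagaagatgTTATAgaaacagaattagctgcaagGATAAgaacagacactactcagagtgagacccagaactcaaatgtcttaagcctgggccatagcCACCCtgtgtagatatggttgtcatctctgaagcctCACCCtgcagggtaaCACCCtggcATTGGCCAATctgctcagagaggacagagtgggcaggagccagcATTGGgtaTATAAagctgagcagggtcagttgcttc
Epor (chr9:21963577-21963826, - strand): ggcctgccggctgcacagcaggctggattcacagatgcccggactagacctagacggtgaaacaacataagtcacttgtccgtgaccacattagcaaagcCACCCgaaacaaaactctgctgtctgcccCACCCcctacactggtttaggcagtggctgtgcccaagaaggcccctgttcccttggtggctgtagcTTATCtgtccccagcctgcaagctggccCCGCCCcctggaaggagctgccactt
The window of Hba-a2 (chr11:32296242-32296491) was shifted by 3 bases against that of Hba-a1, and all 297 bases the full windows shared were identical. The 3 globin windows printed hold the first 4 of these motifs, with TATAA beginning 27 to 29 bases before the start. The Epor window holds GATAA on the reverse strand, 54 to 50 bases before the start, beside CACCC at 2 places and the GC box core. It holds neither the CCAAT box nor the TATA core. Among all 32851 windows of the same length, 22.6% held GATAA, 52.0% CACCC, 33.8% CCAAT, 22.8% TATAA and 32.7% CCGCCC. These matches describe the letters and are not evidence of binding.

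The deposited counts are expected counts, summing to between 17531694 and 18203443 per library in young and between 16356839 and 17876681 in aged mice. The labelled tissue was checked by its markers. All 10 chondrocyte genes listed had enough counts to be tested, although Matn1, a cartilage matrilin, averaged only 0.745 CPM in young and 0.0271 CPM in aged libraries. Of the 10, 7 were called lower and 1 (Comp, a cartilage matrix protein) higher in aged mice, beside 21.5% and 24.7% of all rows. The 7 include Matn1, which had enough counts only through the young libraries, where it was high, so its call adds no support. Bone markers were also high: Col1a1, the type I collagen of bone and fibrous tissue, averaged 17082 FPKM in young and 5270 FPKM in aged libraries, above Col2a1, the type II collagen of cartilage, at 5108 and 1603 FPKM. The part that bone or fibrous tissue in the samples had in the members' values was not tested. Acan, the aggrecan core protein, averaged 2119 CPM (counts scaled to a common library size by TMM) in the young and 2039 CPM in the aged group. With library sizes alone in place of TMM factors, the median change over all rows moved from 0.014 to 0.244. The split of all calls then went from 3470 higher and 3028 lower to 7033 and 1253. On the log2(FPKM + 1) scale the split was 6225 and 1369.

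Every member was higher in aged than in young cartilage, about 10-fold for the globins, 12.8-fold for Ahsp and 6.98-fold for Epor. All 6 rows passed the filter on low counts, and no member was below 0.978 CPM in any library. Alpha-globin, beta-globin, Ahsp and Epor were all called by edgeR's quasi-likelihood test, where 46.2% of all 14065 rows were called, 24.7% higher and 21.5% lower. In all of them the aged libraries lay above the young ones without overlap, which held for 8.28% of all rows (19.1% in either direction). In bulk tissue, more cells of a type and more of an RNA per cell cannot be told apart.

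Alpha-globin ranged from 172.7 CPM (replicate 2) over a median of 232.7 to 652.4 CPM (replicate 1) in young mice. In aged mice it ranged from 848.2 CPM (replicate 3) over a median of 3005 to 6361 CPM (replicate 6). Young replicates 1 and 5 stood well above the other 5 young libraries, and aged replicate 3 well below the other 5 aged ones, so the gap between the ages was narrow at these libraries. The means were 353.4 ± 207 CPM (SD, n = 7) and 3397 ± 1870 CPM (SD, n = 6). On the log2 scale the rise was 3.26 ± 0.45 (SE, adjusted p = 7.88e-05 by edgeR). It was the rise of rank 53 among all rows tested.

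Beta-globin followed the same order of libraries in aged mice and nearly the same in young mice. It ranged from 160.7 CPM over a median of 224.3 to 632.8 CPM in young mice, lowest in replicate 2 and highest in replicate 5. In aged mice it ranged from 679.7 CPM over a median of 3169 to 6229 CPM, again lowest in replicate 3 and highest in replicate 6. Aged replicate 3 lay only just above young replicates 5 and 1, so the ages stood apart by less than the spread within either. The means were 330.3 ± 194 CPM (SD, n = 7) and 3340 ± 1803 CPM (SD, n = 6). The rise was 3.34 ± 0.47 on the log2 scale (SE, adjusted p = 8.54e-05 by edgeR).

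Ahsp, whose product shields free alpha chains, ranged from 1.41 CPM (replicate 7) over a median of 2.22 to 11.3 CPM (replicate 5) in young mice. In aged mice it ranged from 17.8 CPM (replicate 3) over a median of 59.7 to 87.2 CPM (replicate 6). Young replicates 5 and 1 were again the highest of their age, and aged replicates 3 and 2 the lowest of theirs. Its rise of 3.68 ± 0.51 on the log2 scale (SE, adjusted p = 7.33e-05 by edgeR) was nominally the largest of the members, within the error of both globins. The young values rest on 23 to 187 expected counts per library.

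Epor was the lowest of the members. It ranged from 0.978 CPM (replicate 7) over a median of 2.62 to 4.09 CPM (replicate 5) in young mice, on 16 to 68 expected counts. In aged mice it ranged from 7.90 CPM (replicate 2) over a median of 17.3 to 23.6 CPM (replicate 1). All young libraries lay below every aged one, and the order of the aged libraries was not that of the globins. Epor rose by 2.80 ± 0.34 on the log2 scale (SE, adjusted p = 2.44e-05 by edgeR).

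**Figure D1:**
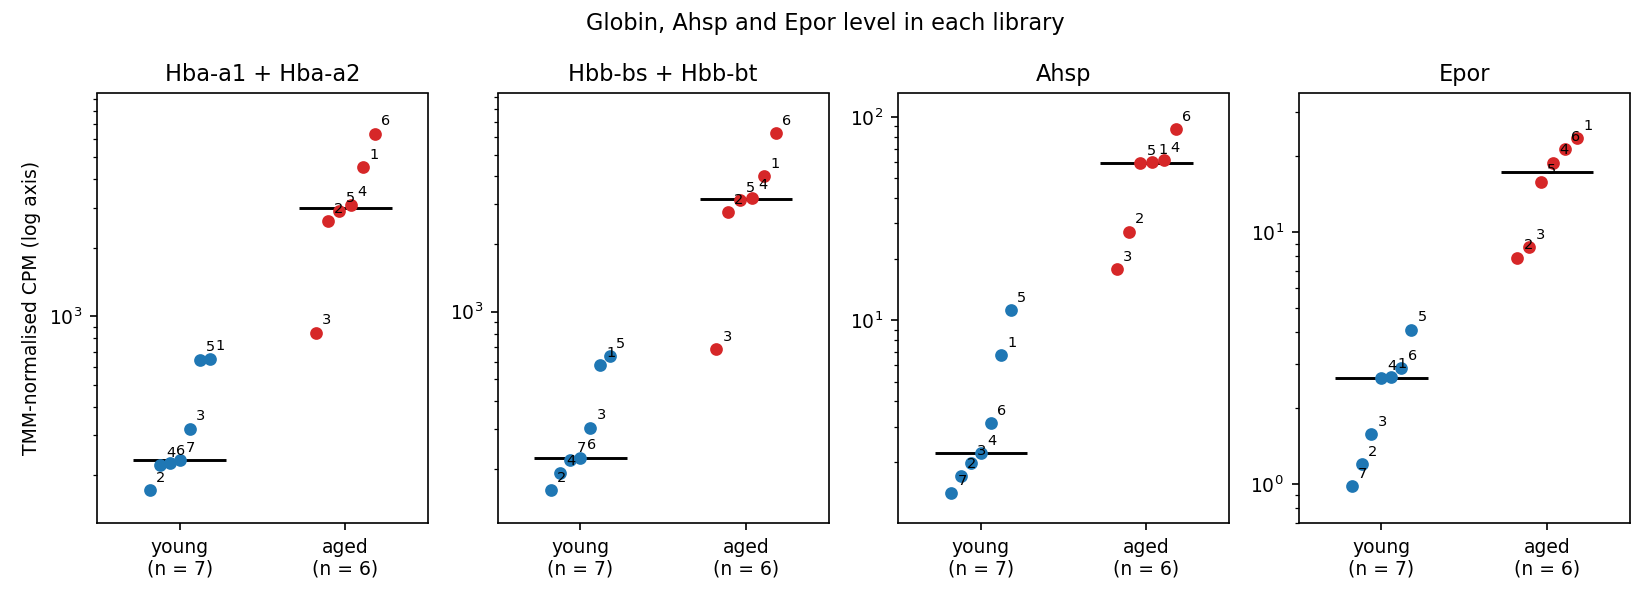
TMM-normalised CPM of alpha-globin, beta-globin, Ahsp and Epor in each of the 7 young and 6 aged libraries, on log axes that differ between panels. Points are libraries numbered by replicate and bars are group medians. All aged points lie above all young points in each panel, with aged replicate 3 nearest to the young libraries for both globins and Ahsp and aged replicate 2 for Epor.

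Levels can be compared between genes only per length, for which the deposited FPKM values were used. In aged mice the mean levels fell in the order Hba-a1 (9635 FPKM), Hbb-bs (8900 FPKM), Hba-a2 (5120 FPKM), Hbb-bt (2198 FPKM), Ahsp (307 FPKM) and Epor (10.9 FPKM). The order was the same in young mice, at 925, 797, 533, 224, 23.5 and 1.35 FPKM. It held in every library, except that Hbb-bs stood above Hba-a1 in 1 of the 6 aged libraries, where their ratio was 0.926. Over all libraries the ratio of Hba-a1 to Hbb-bs ran from 0.926 to 1.36, and the difference between these 2 genes was not tested. By mean FPKM, Hba-a1 and Hbb-bs were the rows of rank 1 and 2 of 18748 in aged mice and of rank 53 and 67 in young mice. Hba-a1 held between 60.5% and 66.2% of alpha-globin counts in young and between 63.3% and 69.1% in aged libraries, a split that rests on the reads that tell the copies apart.

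The share of all counts uses each library's total and no TMM factor, so changes in other abundant genes move it too. Globins took from 0.0301% over a median of 0.0412% to 0.120% of counts in young and from 0.162% over a median of 0.651% to 1.38% in aged libraries. The ages did not overlap. On the log2 scale the difference was 3.48, an 11.1-fold change (two-sided exact permutation p = 0.000583, the smallest that the 1716 splits allow). Adjusted by Benjamini-Hochberg over the 6 within-library measures tested, it was 0.00350.

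Alpha- and beta-globin kept to near-equal counts in both ages. The alpha to beta ratio of counts ranged from 1.01 over a median of 1.06 to 1.16 in young and from 0.931 over a median of 0.993 to 1.25 in aged libraries. The aged libraries spread on both sides of the young ones, with replicates 2, 4 and 5 below all young values and replicate 3 above all of them. The mean ratios were 1.07 ± 0.054 (SD, n = 7) and 1.04 ± 0.125 (SD, n = 6). No difference was detected (log2 difference -0.051, two-sided exact permutation p = 0.471, adjusted 0.471), which does not show that the ratios are alike. These are ratios of counts, not per length.

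Ahsp was higher in relation to alpha-globin in aged mice. Per 1000 alpha-globin counts there were from 6.04 over a median of 9.97 to 17.4 Ahsp counts in young and from 10.4 over a median of 16.7 to 21.0 in aged libraries. The ages overlapped: young replicates 5 and 6 lay within the aged range, and aged replicates 1, 2 and 6 within the young range. The difference of 0.69 on the log2 scale, 1.61-fold, had a two-sided exact permutation p of 0.0332 (adjusted 0.0498). The unadjusted exact p rose above 0.05 without aged replicate 3 (0.605, exact p = 0.0593), replicate 4 (0.62, exact p = 0.0581) or replicate 5 (0.61, exact p = 0.0593). No adjusted p was computed with libraries left out, here or for the measures below.

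Epor in relation to alpha-globin did not differ detectably between the ages. There were from 4.09 over a median of 6.33 to 12.7 Epor counts per 1000 alpha-globin counts in young and from 3.01 over a median of 5.32 to 10.3 in aged libraries. Young replicates 4 and 6 and aged replicate 3 were the highest. The log2 difference was -0.37 (two-sided exact permutation p = 0.321, adjusted 0.385).

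Globin was lower in relation to Slc4a1, the band 3 anion exchanger and main protein of the red cell membrane. Each Slc4a1 count was matched by 12.03 over a median of 17.8 to 37.7 globin counts in young and by 7.07 over a median of 10.9 to 19.3 in aged libraries. Young replicates 3 and 7 were far above the rest, and the ages overlapped. The log2 difference was -0.82 (two-sided exact permutation p = 0.028, adjusted 0.0498). The unadjusted exact p was above 0.05 without aged replicate 1 (-0.79, exact p = 0.053), replicate 3 (-0.68, exact p = 0.0631) or replicate 4 (-0.73, exact p = 0.0593).

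Hbb-bt held from 19.8% over a median of 20.8% to 23.1% of beta-globin counts in young and from 16.6% over a median of 19.9% to 20.4% in aged libraries. Aged replicate 2 was the lowest by far, and the rest of the aged range lay within or just under the young one. The difference was -1.62 percentage points (two-sided exact permutation p = 0.0321, adjusted 0.0498). Without aged replicate 2 it was -1.08 points (exact p = 0.0783). The unadjusted exact p was also above 0.05 without young replicate 1 (-1.49), 2 (-1.55), 5 (-1.27) or 6 (-1.65), each at exact p = 0.0563. The same held without aged replicate 1 (-1.60, exact p = 0.0505).

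**Figure D2:**
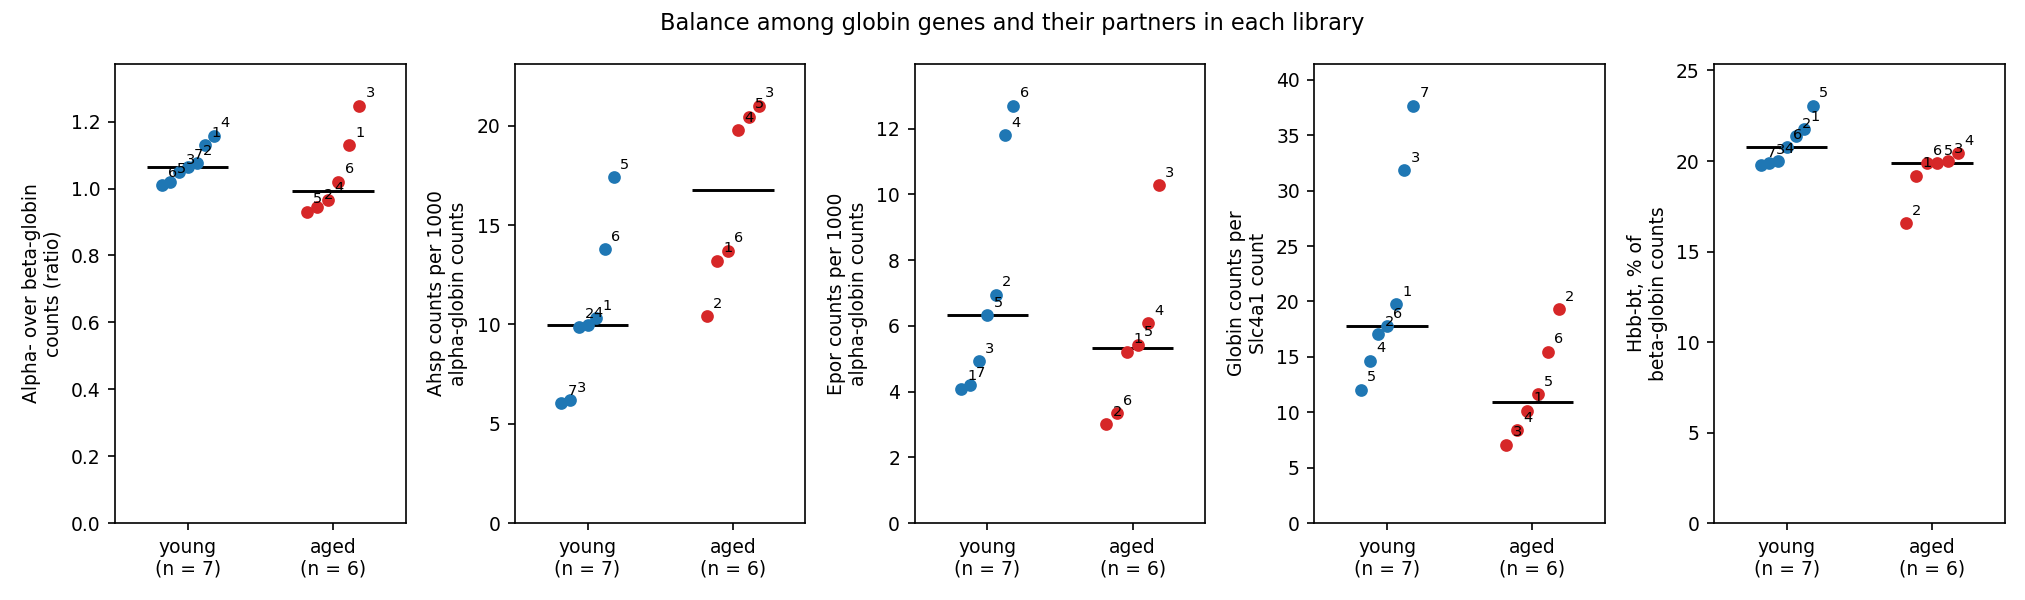
Within-library ratios and shares of expected counts in the 7 young and 6 aged libraries, on linear axes from 0. Points are libraries numbered by replicate and bars are medians. The alpha to beta ratio lies between 0.931 and 1.25 throughout, and the ages overlap in every panel.

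Other globin genes were read from a list of 13 symbols, of which 10 were rows of the table and 4 had enough counts to be tested. The embryonic globins were nearly absent: Hba-x and Hbb-y had 2 expected counts each over all 13 libraries, Hbb-bh1 had 1 and Hbb-bh2 had 0. Hbq1b, a theta-like gene of the alpha cluster, averaged 0.204 ± 0.171 CPM over the 7 young and 2.79 ± 1.33 CPM over the 6 aged libraries (SD). It passed the filter on low counts only through the aged libraries, where it was high, so no test of it is given. Mb, the myoglobin gene of muscle, rose by 2.23 on the log2 scale. Its mean went from 299 to 1402 CPM with overlap between the ages.

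Red cell genes around the members rose with them. All 17 red cell membrane genes were called higher, where 24.7% of all rows were called higher and 21.5% lower. Their median log2 fold change was 3.50 against 0.014 over all rows tested. They include Icam4, at a mean of 0.386 CPM in young and 4.44 CPM in aged libraries. It passed the filter on low counts only through the aged libraries, where it was high, so its call adds no support. Slc4a1 rose by 3.87. Of 13 genes for haem synthesis and iron supply 12 were called higher and none lower, at a median of 1.27. Alas2, the erythroid enzyme that starts haem synthesis, averaged 15.1 ± 8.96 CPM in the 7 young and 189 ± 91.5 CPM in the 6 aged libraries (SD). Its rise was 3.64 ± 0.43 on the log2 scale (SE, adjusted p = 2.11e-05 by edgeR). The exception was Tfrc, the transferrin receptor through which cells take up iron, named here after its value was seen, at -0.09 ± 0.12 (SE, edgeR adjusted p = 0.55). All 9 red cell enzymes were called higher at a median of 1.60, led by Car1, a carbonic anhydrase, at 3.58 and Pklr, the pyruvate kinase of red cells, at 3.56. Pklr averaged only 1.21 CPM in young against 14.4 CPM in aged libraries. Whether it would have passed the filter on low counts through the young libraries was not tested.

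Of 14 regulators of globin genes 10 were called higher and none lower, beside 24.7% and 21.5% of all rows. Their median log2 fold change was 1.41, against 0.014 over all rows tested. Gata1, the main erythroid transcription factor, averaged 1.94 CPM in young and 23.9 CPM in aged libraries, a rise of 3.62 ± 0.45 on the log2 scale (SE, adjusted p = 3.20e-05 by edgeR). Klf1, which activates adult beta-globin, rose by 3.36. Myb, Ldb1, Cbfa2t3 and Zbtb7a were the 4 that were not called, named after their values were seen, with log2 fold changes between -0.22 and 0.13.

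Genes of the erythropoietin pathway moved far less than the receptor. Of 20 tested members 10 were called higher and 2 lower, beside 24.7% higher and 21.5% lower over all rows. Their median log2 fold change was 0.33 and none was above 0.841, against 2.80 for Epor. With library sizes alone 15 were higher and none lower, and with the neutrophil score as a covariate 4 were higher and none lower. Ptpn6, a phosphatase that damps the receptor's signal, rose by 0.84 and Irs2, an adaptor shared with insulin signalling, by 0.83. Socs1, a feedback inhibitor of JAK kinases, fell by 0.53, and the other one called lower was Gab1, an adaptor, at -0.38. Jak2 itself was not called (-0.01, and 0.22 with edgeR adjusted p = 0.0476 with library sizes alone). Epo, the hormone, is made mainly in kidney and liver and had too few counts to be tested, at most 0.0568 CPM in any library.

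Genes that limit free globin chains or clear released haemoglobin showed smaller differences. Among 5 genes for the control of free globin 3 were called higher and 1 lower (median 0.66), beside 24.7% and 21.5% of all rows. Ppp1r15a, which reverses the translation block set by the haem-regulated kinase, rose by 1.33, and Ube2o, a ubiquitin ligase that removes excess alpha chains in reticulocytes, by 1.08. Atf4 fell by 0.36 and, with library sizes alone, was not called. Of 12 genes for haemoglobin and haem clearance 7 were called higher and 1 lower (median 0.47). Hp, which encodes the haemoglobin-binding protein haptoglobin, rose by 1.38 and Hmox1, which breaks down haem, by 0.97. Hmox2 fell by 0.22 with TMM factors and stood at 0.0037 with library sizes alone.

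**Figure D3:**
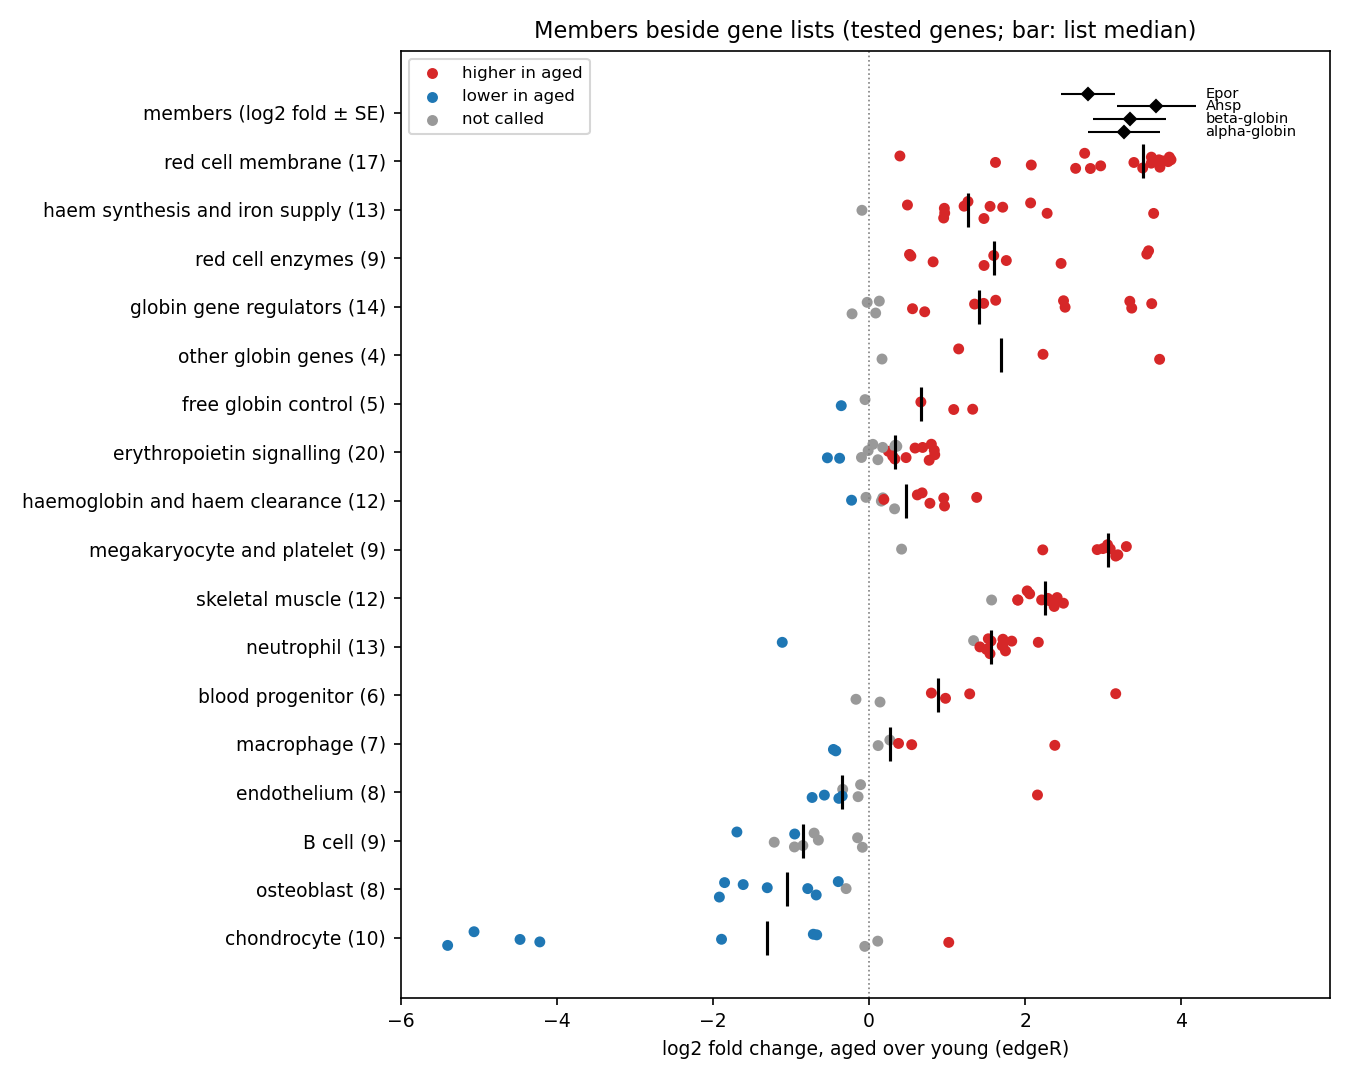
Log2 fold change of aged over young mice for the members (diamonds with SE) and for every tested gene of 17 lists, coloured by the edgeR call, with a bar at each list's median. The members lie between 2.80 and 3.68, beside the red cell membrane list (median 3.50) and far above the erythropoietin signalling list (median 0.33).

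The genes whose levels followed each member most closely were sought over the 13 libraries after the mean of each age was taken out, among 12291 rows with a mean FPKM of at least 1. These correlations describe libraries that share sequencing depth and scaling. Alpha-globin was followed by Alas2 (r = 0.971), Gk (0.939), Sowaha (0.930) and Ube2l6 (0.928). These 4 genes were also among the 5 closest to beta-globin, with Alas2 at 0.954. Ahsp was followed instead by red cell membrane genes, with Rhd at 0.975 and Slc4a1 at 0.969, beside Tspo2 and Apol8. Epor was followed by the transcription factor genes Gata1 (0.948) and Gfi1b (0.936) and by Car2 and Ctse. Between the members themselves r was 0.992 for alpha- with beta-globin, 0.872 for alpha-globin with Ahsp, 0.868 for Ahsp with Epor and 0.685 for alpha-globin with Epor.

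Within each age, 10 relations of alpha-globin with other measures were tested by exact permutation of the pairings. Alpha- and beta-globin varied together in young (Pearson r = 0.996, exact p = 0.000794, adjusted 0.00694; Spearman rho = 0.929, exact p = 0.00675, n = 7) and in aged libraries (r = 0.991, exact p = 0.00139, adjusted 0.00694; rho = 1.0, exact p = 0.00278, n = 6). Without the 2 libraries farthest from the median, r was 0.979 and 0.989. Alpha-globin and Ahsp were related in young libraries (r = 0.887, exact p = 0.0226, adjusted 0.0452; rho = 0.571, exact p = 0.200) only through replicates 1 and 5, without which r was 0.110. In aged libraries r was 0.905 (exact p = 0.00417, adjusted 0.0139; rho = 0.943, exact p = 0.0167), and 0.564 without replicates 3 and 6. Alpha-globin and Epor did not pass after adjustment in young (r = 0.618, exact p = 0.150, adjusted 0.187; rho = 0.429, exact p = 0.354; r = 0.107 without replicates 1 and 5) or in aged libraries (r = 0.767, exact p = 0.0472, adjusted 0.0787; rho = 0.886, exact p = 0.0333; r = 0.806 without replicates 3 and 6).

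Markers of other cells that lie near the condyle moved with age too. Neutrophil genes were called higher in 11 of 13 cases, all 13 being detected, with a summed level of 3320 to 4666 CPM in young and 2904 to 6868 CPM in aged libraries. Mmp9, which osteoclasts also express, fell by 1.11 and held most of the young sum, where it averaged 2775 CPM against 1284 CPM in the aged libraries. Skeletal muscle genes were higher in 11 of 12 cases, all detected, at 591 to 5515 CPM in young and 4560 to 17313 CPM in aged libraries. Endothelial genes, of interest because endothelium can express Epor, were higher in 1 case (Vwf, 2.16) and lower in 4 of 8. Over all rows 24.7% were called higher and 21.5% lower. Only 1 endothelial gene was lower with library sizes alone. There were 2 when young replicate 1, 2, 3 or 6 or aged replicate 1, 4 or 6 was left out. The summed level of the endothelial genes was 421 to 607 CPM in young and 410 to 598 CPM in aged libraries.

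With the mean log2 level of the neutrophil genes as a covariate, a fit added after the data were seen, the members stayed called. Their log2 fold changes were then 2.20 for alpha-globin (edgeR adjusted p = 0.0189), 2.31 for beta-globin (0.0203), 2.76 for Ahsp (0.00854) and 2.04 for Epor (0.00243). With the muscle genes as the covariate they were 4.46 (0.000114), 4.51 (0.000172), 4.73 (0.000369) and 3.43 (0.000202). Within aged libraries alpha-globin was related to the neutrophil score (r = 0.861, exact p = 0.0111, adjusted 0.0278; rho = 0.829, exact p = 0.0583), and r was 0.477 without replicates 3 and 6. In young libraries it was not (r = 0.0032, exact p = 0.996, adjusted 0.996; rho = -0.214, exact p = 0.661; r = -0.592 without replicates 1 and 5). With the muscle score r was below 0 in young (r = -0.545, exact p = 0.180, adjusted 0.200; rho = -0.750, exact p = 0.0663; r = -0.643 without replicates 1 and 5) and in aged libraries (r = -0.733, exact p = 0.0806, adjusted 0.115; rho = -0.714, exact p = 0.136; r = -0.952 without replicates 3 and 6), and neither passed.

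**Figure D4:**
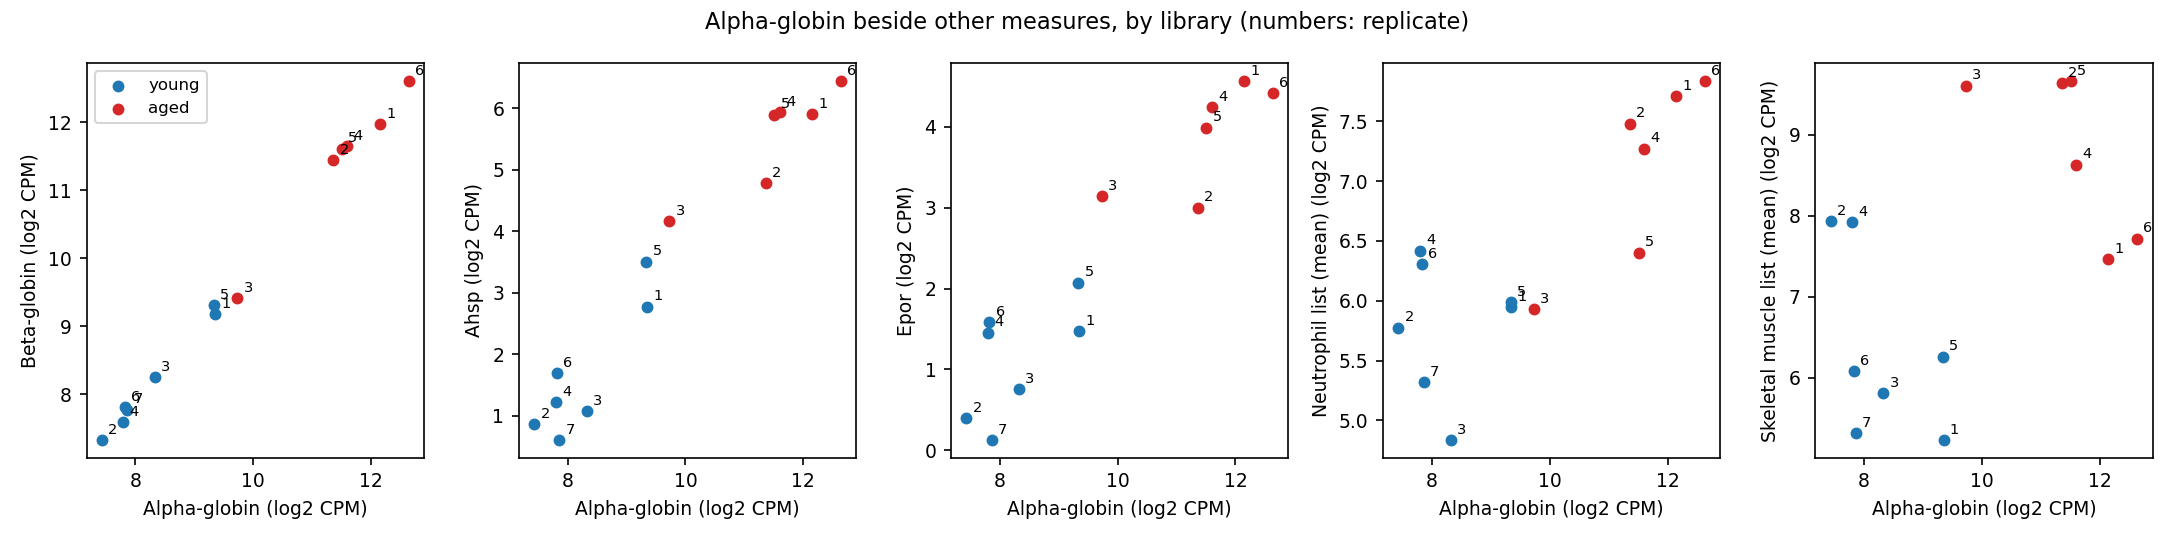
Log2 CPM of alpha-globin (x axes) against beta-globin, Ahsp, Epor and the mean log2 CPM of the neutrophil and skeletal muscle lists (y axes), with young libraries in blue, aged in red and replicate numbers beside the points. Beta-globin lies on 1 line with alpha-globin across both ages, while Epor in aged replicate 2 is low for its alpha-globin level.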

How the data were processed

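Total RNA of 7 young and 6 aged condylar cartilage samples was enriched for poly(A) RNA and sequenced as strand-specific pairs, per the labels' protocols. The submitters' processing notes name HISAT2 2.1.0, Bowtie2 2.3.4.3, RSEM 1.3.1, DESeq2 1.4.5 and GRCm39, with no roles. Which gene annotation was used is not stated in the labels. The authors deposited expected counts, FPKM and TPM per gene and library. The expected counts deposited by the authors are estimates (5.3% of values not whole) and were rounded before fitting. The FPKM values deposited by the authors were used for levels between genes and in alternative fits and ratios. Their TPM values were used only in an alternative run of the globin share of all counts.

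Counts of the globin copies were summed. A filter on low rows (filterByExpr with a count of at least 10 and a total of at least 15) came first; rows were then scaled by TMM, and compared with edgeR 4.0.16 (robust quasi-likelihood test, Benjamini-Hochberg over all rows, threshold 0.05) in R 4.3.3. The SE is the log2 fold change divided by the square root of F. CPM on the log2 scale used a prior count of 2. Ratios used unscaled counts and two-sided exact permutation tests. The members and lists were chosen with earlier results of these data known. From each list the text names the 2 called genes with the largest change in the majority direction and the 1 with the largest in the other; the 5 closest rows by correlation were sought per member. A few genes that these rules pick are not reported here. Alternatives were other scalings and filters, DESeq2 1.42.0, limma 3.58.1 (voom, and FPKM with pseudocounts of 1 and 0.1), separate copies, a replicate block and leaving out each library. Counts were simulated for 14002 genes, with 50 genes changed at each fold, up or down at random and none at low counts. Of the genes changed 1.5-fold 68% were called, of those changed 2-fold 86%, and of those changed 4-fold or 8-fold 100%. Of the calls 2.21% were false. Far fewer genes changed there than were called in the data, so these rates need not hold for the data. No libraries were duplicates: the smallest chi-square per degree of freedom over 36 pairs was 9.87. Figures were drawn with matplotlib 3.10.9. Sequences came from RefSeq (GRCm38.p6) and GENCODE M21, and not from the authors' build.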

Additional observations from a re-analysis of the deposited data

Results flagged for a closer look

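One value stood far from the rest of its group. Hbb-bt held 16.58% of beta-globin counts in aged replicate 2, where the next lowest aged library had 19.19%. The gap was 0.680 of the group's range, above the critical value of 0.625 for 6 samples. Chance alone gives such a value in about 1 in 20 groups, and 20 groups were examined. The copies share nearly all of their coding sequence, and how their reads were divided in that library was not tested.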

How the results depend on the processing

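Alpha-globin, beta-globin, Ahsp and Epor were called higher in aged mice under every alternative run. Over the other scalings, filters, tools, copies and the block their log2 fold changes were 3.16 to 3.49, 3.19 to 3.57, 3.64 to 3.90 and 2.28 to 3.03. Leaving out each library gave 2.98 to 3.48, 3.06 to 3.58, 3.47 to 4.18 and 2.66 to 3.01. The 3 ratios near the threshold did not hold when single libraries were left out: Ahsp to alpha-globin 0.567 to 0.822, globin to Slc4a1 -0.974 to -0.667, and the Hbb-bt share -1.84 to -1.08 points. With the replicate block (numbers 1 to 6) they were 0.567 (exact p = 0.0625), -0.667 (exact p = 0.0938) and -1.82 points (exact p = 0.125), and no other result of the members changed its call. The labels do not say whether the replicate numbers pair the libraries, and the values do not settle it. Deviations of same-numbered libraries correlated at -0.12 to 0.259, and 2 of 6 aged libraries correlated best with their own number. The block gave 5786 called rows against 6498, and library sizes alone 8286. With library sizes alone Jak2 stood at 0.22 and Hmox2 at 0.0037. With covariates chosen after seeing the data, 4023 rows were called with the neutrophil score, with Bcl11a at -0.029, S100a9 at -0.04 and Ltf at -0.25. With the muscle score 3481 rows were called, with Acta1 at -0.26, Mylpf at -0.23 and Myoz1 at -0.24. The last 5 of these genes belong to the lists that made the covariates; the cause of the other shifts was not tested. Young Epor values rest on as few as 16 counts, which limits its ratios.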

Other observations

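Megakaryocyte and platelet genes were another blood lineage that was higher in aged mice. Of 9 genes 8 were called higher and none lower, at a median log2 fold change of 3.05, with Gp1ba at 3.30 and Gp9 at 3.19, both parts of the platelet receptor for von Willebrand factor. Their summed level was 37.6 to 92.9 CPM in young and 58.1 to 538 CPM in aged libraries. The lowest aged value was that of replicate 2, which lay within the young range, while its alpha-globin (2628 CPM) lay far above every young library. Of 9 B cell genes edgeR called 2 lower and none higher, near the 21.5% of all rows called lower, and the count lower was 0 with library sizes alone and 5 without aged replicate 1. Of 6 blood progenitor genes 4 were called higher and none lower, and 2 were higher with the neutrophil score as a covariate. Of 7 macrophage genes 3 were called higher and 2 lower, against 4 and none with library sizes alone. Over all rows 24.7% were called higher and 21.5% lower. Of 8 osteoblast genes 7 were called lower (median -1.05).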
